A study of Mus musculus with 9 samples.

Results

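The genes described here are 9 components and targets of the canonical Wnt pathway, namely Wnt3, Ctnnb1, Tcf7, Lef1, Tcf7l1, Axin2, Sp5, Nkd1 and Dkk1. They were taken by symbol from the gene expression table, in which 9 of 9 had a row among the 15074 genes used. RNA-seq covered 3 mouse embryonic stem cell (ESC) lines. WT is the J1 line. 1KO is a Dnmt1-/- line made from J1, which lacks the maintenance DNA methyltransferase. 1KO+1CI is 1KO with a transgene under the CAG promoter for a DNMT1 whose catalytic cysteine is replaced, so it shares the Dnmt1-/- background with 1KO. All lines were grown on mitomycin-treated embryonic fibroblast feeders with serum and LIF at day 0. They were then freed of most feeders by plating, kept 1 day as embryoid bodies without LIF and grown as adherent cells until days 2 and 4, a protocol that leads towards epiblast-like cells. There was 1 library for each line and day, 9 in all, and the transgenic line is presumably 1 clone. No value therefore has a replicate error, no significance test was run, and differences between libraries have no spread between cultures to be set against. An additive model with line and day, fitted to the 9 libraries, is possible and was left out.

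Canonical Wnt signalling works by keeping β-catenin, the product of Ctnnb1, from being destroyed. Without a ligand, a complex built on Axin proteins marks β-catenin for degradation. When a secreted Wnt protein binds Frizzled and LRP receptors, β-catenin builds up, enters the nucleus and joins DNA-bound TCF/LEF factors, which then switch from repressing to activating their targets. Several targets, among them Axin2, Nkd1 and Dkk1, restrain the signal in turn. In ESCs the pathway is known to favour self-renewal, and in the embryo Wnt3 is needed to form the primitive streak, the site where mesoderm and endoderm arise.

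Levels are given as FPKM, read counts scaled to transcript length and library size, so that levels of different genes can be set side by side per length. Judged by their decimals, the values are means over 2 transcripts for Ctnnb1, Tcf7, Tcf7l1 and Nkd1, and over 3 for Lef1. Ratios between genes and read pairs of these genes therefore depend on the transcripts averaged. The libraries hold between 20120000 and 27930000 counted reads, as recovered from the table. A difference is the difference in log2(FPKM + 1) between single libraries, and a gene is called higher or lower when this is at least 1 in size, a change of 2-fold. Ratios are of FPKM, with exact 95% binomial (Clopper-Pearson) intervals on read pairs, which cover counting error only. As a check of the labels, Dnmt1 lay between 48.5 and 80.4 FPKM in the 3 WT libraries, between 12.3 and 17.4 in 1KO and between 129 and 315 in 1KO+1CI. Of the markers of other cells, all 11 feeder fibroblast genes with a row reached 1 FPKM in each day 0 library, and their summed level was 153, 279 and 312 FPKM in WT, 1KO and 1KO+1CI. In these bulk samples, fewer cells of a type and less RNA per cell cannot be told apart.

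**Figure D1:**
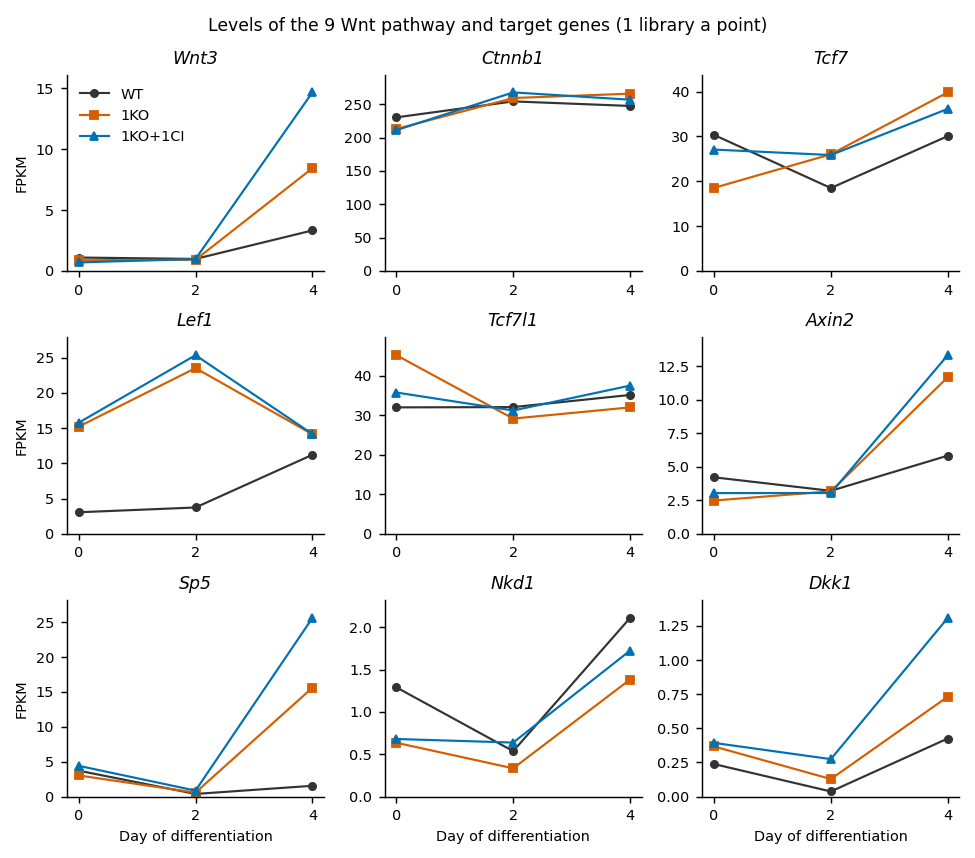
FPKM (y axis, linear from 0, a scale for each panel) of the 9 genes at days 0, 2 and 4 of differentiation (x axis) in WT (circles), 1KO (squares) and 1KO+1CI (triangles), 1 library a point and no error bars. Lef1 separates WT from both Dnmt1-/- lines at days 0 and 2, whereas Wnt3, Axin2 and Sp5 separate them at day 4.

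Wnt3 encodes the ligand of the set. It lies on chromosome 11 at 103774150 to 103817957 on the plus strand (GRCm38), with 5 exons in 1 annotated transcript. WT gave 1.10, 0.988 and 3.33 FPKM at days 0, 2 and 4. 1KO gave 0.881, 0.917 and 8.44 FPKM, and 1KO+1CI gave 0.698, 0.982 and 14.7 FPKM. The 6 libraries of days 0 and 2 thus lay within a narrow band near 1 FPKM, and none of the 5 neighbouring pairs in the order of these 6 levels differed beyond counting error. The 3 day 4 libraries stood above them and apart from each other, in the order WT, 1KO and 1KO+1CI. From WT to 1KO the day 4 ratio was 2.54 (2.03 to 3.20), and from 1KO to 1KO+1CI it was 1.74 (1.5 to 2.02). On the log2 scale these differences were 1.12 and 0.73, so that only the first reached 2-fold. The ratio of day 4 to day 0 was 3.02, 9.57 and 21 in WT, 1KO and 1KO+1CI.

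Ctnnb1, on chromosome 9 at 120929216 to 120960507 on the plus strand, encodes β-catenin itself and was by far the most abundant transcript of the 9. Its levels ran from 211 FPKM in 1KO+1CI at day 0 to 268 FPKM in 1KO+1CI at day 2, with a median of 254 FPKM. WT gave 230, 254 and 247 FPKM, 1KO gave 213, 259 and 266 FPKM, and 1KO+1CI gave 211, 268 and 257 FPKM at days 0, 2 and 4. The lines overlapped, and of the 8 neighbouring pairs in the order of levels 6 did not differ beyond counting error. The whole range, from the lowest to the highest library, was 1.27-fold (1.23 to 1.30), an interval that excludes 1. The 3 day 0 libraries were the lowest. These are transcript levels, and the β-catenin protein, on which the pathway mainly acts, was not measured.

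Lef1 encodes a TCF/LEF factor that mostly activates targets and is itself a known Wnt target. It lies on chromosome 3 at 131110471 to 131224356 on the plus strand, and its FPKM in the table is the mean over 3 transcripts. WT gave 3.05, 3.73 and 11.2 FPKM at days 0, 2 and 4. 1KO gave 15.2, 23.5 and 14.1 FPKM, and 1KO+1CI gave 15.8, 25.4 and 14.2 FPKM. Each of the 6 Dnmt1-/- libraries was above each WT library, and WT came closest to them at day 4. The ratio of 1KO to WT was 4.98 (4.06 to 6.12) at day 0, 6.31 (5.31 to 7.52) at day 2 and 1.26 (1.11 to 1.43) at day 4. The log2 differences were 2.00, 2.37 and 0.31, so that Lef1 was called higher at days 0 and 2 and not at day 4. Between 1KO+1CI and 1KO the ratios were 1.04 (0.931 to 1.15), 1.08 (0.981 to 1.18) and 1.00 (0.887 to 1.13), and all 3 intervals held 1. Of the other members, none was called between WT and either Dnmt1-/- line at day 0 or day 2.

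Levels of other cell types moved with Lef1 in part, and their part in it was not tested. The summed level of the 11 feeder fibroblast markers was 1.82-fold higher in 1KO than in WT at day 0, 1.29-fold at day 2 and 1.47-fold at day 4, with 3, 0 and 0 of the 11 past 2-fold. From day 0 to day 2 in 1KO this sum dropped to 0.227 of its level, with 9 of 11 markers lower by 2-fold, while Lef1 was 1.55-fold higher at day 2. The 5 epiblast-like markers summed to 1.17, 2.07 and 0.917 times the WT level in 1KO at days 0, 2 and 4. Of these markers 1, 5 and 2 were above WT at days 0, 2 and 4, and 0, 3 and 0 were past 2-fold. Dnmt3b was the 1 above WT at day 0 and gave 107 of the 143 FPKM in 1KO. The median difference of the 5 at day 0 was −0.37. From day 0 to day 2 in 1KO, 4 of the 5 were higher by 2-fold. From day 2 to day 4 in WT their sum was 3.41-fold higher and Lef1 3.01-fold higher. Over the same days in 1KO their sum was 1.51-fold higher, while Lef1 was at 0.601 of its day 2 level. In that comparison 4 of the 5 markers were higher, and Pou3f1 was lower (−0.67).

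**Figure D2:**
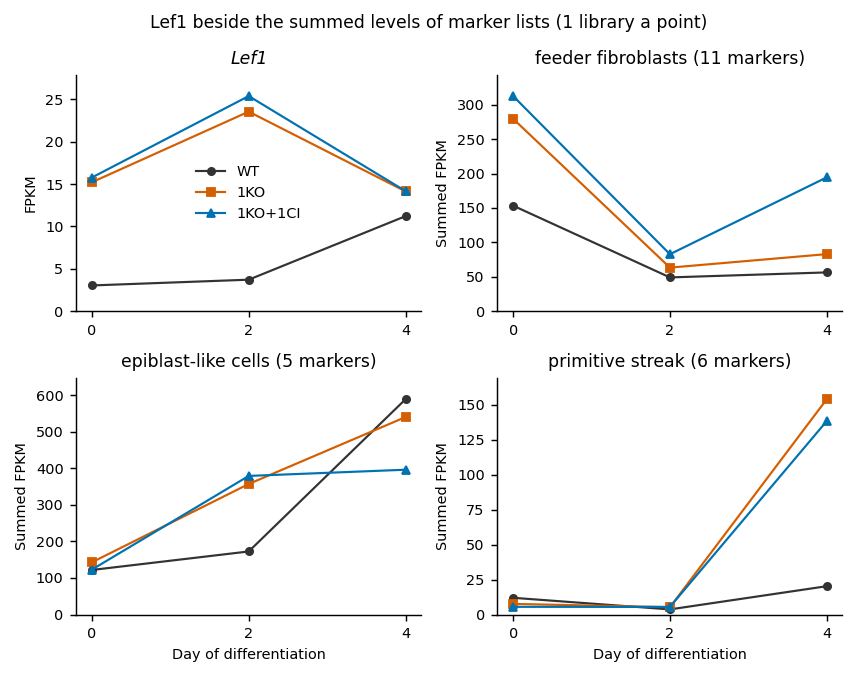
Lef1 (FPKM) and the summed FPKM of 11 feeder fibroblast, 5 epiblast-like and 6 primitive streak markers (y axes, linear from 0) at days 0, 2 and 4 (x axis) in WT (circles), 1KO (squares) and 1KO+1CI (triangles), 1 library a point and no error bars. The feeder sum is lower at day 2 than at day 0 in each line, Lef1 is not, and the streak sum is above 100 FPKM only in 1KO and 1KO+1CI at day 4.

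The 250 bases before the first RefSeq start of Lef1 (GRCm38.p6, chr3:131110047-131110296, plus strand) are shown because DNMT1 acts on CpG, and Lef1 differed most of the 9 genes between WT and the Dnmt1-/- lines at days 0 and 2. The same stretch of Wnt3 (chr11:103773925-103774174, plus strand) is shown beside it. Capitals mark each CpG.
Lef1: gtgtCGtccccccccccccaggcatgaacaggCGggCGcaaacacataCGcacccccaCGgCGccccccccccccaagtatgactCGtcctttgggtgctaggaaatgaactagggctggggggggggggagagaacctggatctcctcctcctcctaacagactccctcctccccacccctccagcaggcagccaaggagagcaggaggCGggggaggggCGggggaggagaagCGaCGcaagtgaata
Wnt3: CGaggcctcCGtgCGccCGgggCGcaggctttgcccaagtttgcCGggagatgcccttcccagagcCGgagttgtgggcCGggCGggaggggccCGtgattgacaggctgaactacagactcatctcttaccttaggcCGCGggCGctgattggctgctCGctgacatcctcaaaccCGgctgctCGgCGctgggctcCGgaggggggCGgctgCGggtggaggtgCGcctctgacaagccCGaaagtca
The Lef1 stretch holds 11 CpG and the Wnt3 stretch 22. In windows that also take 50 bases after the start, this first window of Lef1 held 18 CpG and that of Wnt3 24. The median over all 32851 RefSeq windows of that length was 7, and 70.3% of windows held fewer CpG than that of Lef1 and 80.0% fewer than that of Wnt3. The further Lef1 windows held 21, 8 and 5 CpG. Those of Ctnnb1 held 46 and 51, of Tcf7 45 and 17, of Tcf7l1 34 and of Axin2 31. Those of Dkk1, Sp5 and Nkd1 held 9, 6 and 6. Methylation of these stretches was not analysed here.

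Tcf7, on chromosome 11 at 52252371 to 52283014 on the minus strand, encodes TCF1, the other TCF/LEF factor known mainly as an activator. WT gave 30.4, 18.5 and 30.1 FPKM at days 0, 2 and 4. 1KO gave 18.5, 26.0 and 39.8 FPKM, and 1KO+1CI gave 27.1, 25.9 and 36.2 FPKM. In WT the level was lowest at day 2, in 1KO it was lowest at day 0, and the lines overlapped. The ratio of 1KO to WT was 0.611 (0.549 to 0.679) at day 0, 1.41 (1.26 to 1.58) at day 2 and 1.32 (1.21 to 1.45) at day 4, and none of these reached 2-fold. Within 1KO the ratio of day 4 to day 0 was 2.15 (1.95 to 2.37), with a log2 difference of 1.06.

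Tcf7l1, on chromosome 6 at 72626378 to 72789254 on the minus strand, encodes TCF3, the TCF/LEF factor known as a repressor of the pluripotency network in ESCs. WT gave 32.0, 32.1 and 35.2 FPKM at days 0, 2 and 4, 1KO gave 45.2, 29.2 and 32.0 FPKM, and 1KO+1CI gave 35.8, 31.2 and 37.5 FPKM. The 1KO library of day 0 stood above the other 8, which lay between 29.2 and 37.5 FPKM. Its ratio to WT was 1.41 (1.31 to 1.53), under 2-fold. At day 0 the FPKM of Tcf7l1 was thus 10.5 times that of Lef1 in WT, and 2.97 and 2.27 times in 1KO and 1KO+1CI.

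Axin2 encodes a scaffold of the destruction complex and is widely used as a readout of canonical Wnt activity. It lies on chromosome 11 at 108920349 to 108950783 on the plus strand. WT gave 4.21, 3.20 and 5.83 FPKM at days 0, 2 and 4. 1KO gave 2.48, 3.17 and 11.7 FPKM, and 1KO+1CI gave 3.04, 3.04 and 13.3 FPKM. At day 0 WT was the highest line, at day 2 the 3 lines did not differ beyond counting error, and at day 4 WT was the lowest. The ratio of 1KO to WT was 0.589 (0.472 to 0.737) at day 0, 0.988 (0.782 to 1.24) at day 2 and 2.00 (1.73 to 2.33) at day 4. With 1 added before the log, the day 4 difference was 0.89 and under the threshold, which it just passed with a pseudocount of 0.01 (1.00) or a common sum of FPKM (1.01), while that of 1KO+1CI against WT was 1.07 and passed it. The ratio of 1KO+1CI to 1KO at day 4 was 1.14 (1.01 to 1.29).

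Sp5 encodes a zinc finger factor that is a direct β-catenin target in ESCs and embryos. It lies on chromosome 2 at 70474923 to 70477729 on the plus strand, with 2 exons in 1 transcript. WT gave 3.71, 0.372 and 1.54 FPKM at days 0, 2 and 4. 1KO gave 3.03, 0.567 and 15.6 FPKM, and 1KO+1CI gave 4.4, 0.853 and 25.6 FPKM. It had the widest range of the 9 genes, 68.8-fold between WT at day 2 and 1KO+1CI at day 4. At day 0 the interval held 1 for 1KO and for 1KO+1CI against WT. For 1KO+1CI against 1KO it excluded 1, with a ratio of 1.46 (1.10 to 1.96), under 2-fold. All 3 lines were lowest at day 2, where the levels rest on about 19, 25 and 38 reads and do not separate the lines. At day 4 both Dnmt1-/- lines were far above WT, with a ratio of 10.1 (7.09 to 14.8) for 1KO and 16.6 (11.7 to 24.2) for 1KO+1CI, and log2 differences of 2.71 and 3.39. Between 1KO+1CI and 1KO at day 4 the ratio was 1.64 (1.44 to 1.88), under 2-fold. In WT the day 4 level remained at 0.415 (0.271 to 0.632) of that at day 0, whereas it was 5.16 times that level in 1KO and 5.81 times in 1KO+1CI.

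The promoter of Sp5 is shown because this target varied most and its window holds the core of the TCF/LEF motif. The letters CTTTGA were searched on both strands. Capitals mark the matches in the 250 bases before the RefSeq start (GRCm38.p6, chr2:70474673-70474922, plus strand).
Sp5: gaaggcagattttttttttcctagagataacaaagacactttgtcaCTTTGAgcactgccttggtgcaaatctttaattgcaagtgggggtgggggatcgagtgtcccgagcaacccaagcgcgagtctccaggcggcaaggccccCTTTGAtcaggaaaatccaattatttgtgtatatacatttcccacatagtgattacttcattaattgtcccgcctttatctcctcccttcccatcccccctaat
The 2 matches begin 204 and 104 bases before the start, both on the plus strand. Over all 32851 windows of 300 bases, 16.0% held at least 1 match and 1.73% held 2 or more. Of the 14 windows of the 9 genes, those with a match were the window of Sp5, the window of Dkk1 and 1 of the 4 windows of Lef1, each with 2. A match describes letters in a window and is not a measured site.

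Nkd1 encodes an inhibitor that binds Dishevelled and lies on chromosome 8 at 88521354 to 88594884. Its levels were low, with 1.29, 0.536 and 2.11 FPKM in WT, 0.636, 0.334 and 1.38 FPKM in the 1KO line and 0.680, 0.638 and 1.72 FPKM in 1KO+1CI at days 0, 2 and 4. Each line was highest at day 4, and WT gave the highest value at days 0 and 4. The ratio of 1KO to WT was 0.493 (0.313 to 0.764) at day 0 and 0.655 (0.472 to 0.921) at day 4, and that of 1KO+1CI to WT at day 4 was 0.817 (0.593 to 1.13), an interval that holds 1. On the log2(FPKM + 1) scale the differences of 1KO from WT were −0.49 and −0.38, since the added 1 is of the size of the levels.

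Dkk1 encodes a secreted antagonist that blocks the LRP co-receptors and is also a Wnt target. It lies on chromosome 19 at 30545863 to 30549665 on the minus strand. Its levels were 0.238, 0.037 and 0.425 FPKM in WT, 0.367, 0.128 and 0.731 FPKM in the 1KO line and 0.393, 0.274 and 1.31 FPKM in 1KO+1CI at days 0, 2 and 4. At each day the order from low to high was WT, 1KO and 1KO+1CI, yet none of the 8 neighbouring pairs in the order of its 9 levels differed beyond counting error. Only the 1KO+1CI library of day 4 exceeded 1 FPKM, and it was 3.08 times (1.49 to 6.66) the WT level of that day. The difference was 0.70 on the log2 scale. The WT level of day 2 rests on about 1 read pair.

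**Figure D3:**
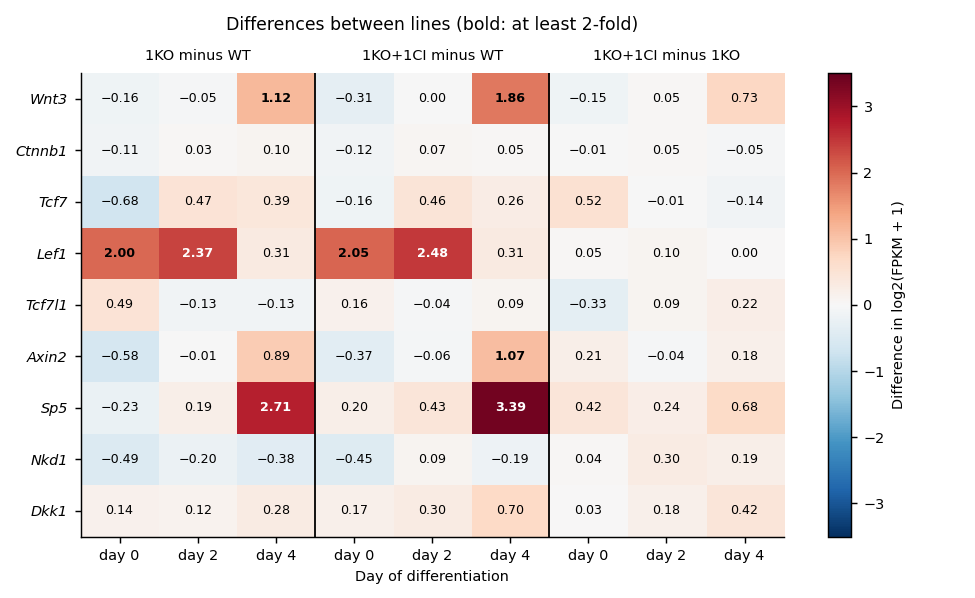
Differences in log2(FPKM + 1) of the 9 genes (rows) between lines at days 0, 2 and 4 (columns), as 1KO minus WT, 1KO+1CI minus WT and 1KO+1CI minus 1KO. Red is higher and blue lower in the line named first, each cell compares 1 library with 1 library, and bold values are at least 1 in size, which holds for Lef1 at days 0 and 2 and for Wnt3, Sp5 and, in 1KO+1CI minus WT, Axin2 at day 4.

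Set against all genes of the table, the members were compared between 1KO and WT, the line it was made from. With 1 library on each side, a difference of genotype cannot be told apart from one between cultures. At day 0, 1 of the 9 genes was called higher (Lef1) and 0 lower, where 2.24% of all genes were higher and 1.55% lower. At day 2 the counts were again 1 (Lef1) and 0, beside 1.6% and 0.663% of all genes. At day 4, 2 of the 9 were higher (Wnt3 and Sp5) and 0 lower, beside 1.67% and 0.59%. The median difference of the 9 genes was −0.16, 0.03 and 0.31 at days 0, 2 and 4, and that of all genes was within 0.01 of 0. Of the 9 genes 7 were above 0 at day 4, with Nkd1 at −0.38 and Tcf7l1 at −0.13.

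The comparison of 1KO+1CI with 1KO sets the line with the inactive protein beside the line it was made from. It has the same limit and shares the 1KO libraries with the comparison above. None of the 9 genes was called in either direction on any day. Of all genes 0.179% were higher and 0.239% lower at day 0, 0.153% and 0.186% at day 2, and 0.624% and 0.292% at day 4. At day 4 the members farthest from 0 were Wnt3 at 0.73 and Sp5 at 0.68. The median difference of the 9 genes was 0.04, 0.09 and 0.19 at days 0, 2 and 4, and that of all genes −0.01, 0.02 and 0.00. With 1KO+1CI set against WT, Lef1 was again called higher at day 0 (2.05, beside 2.54% of all genes higher and 1.97% lower) and at day 2 (2.48, beside 2.28% and 1.26%). At day 4 Wnt3 (1.86), Axin2 and Sp5 were called higher and none lower, beside 3.01% and 1.02% of all genes.

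Over time, Sp5 was the gene of the 9 that was called lower from day 0 to day 2, in each line, with differences of −1.78, −1.36 and −1.54 in WT, 1KO and 1KO+1CI. None was called higher. Of all genes 3.87%, 3.32% and 3.32% were lower and 2.18%, 1.39% and 1.81% higher in WT, 1KO and 1KO+1CI over these days. From day 2 to day 4, WT had Wnt3 (1.12), Lef1 (1.37) and Nkd1 (1.02) called higher, whereas 1KO had Wnt3 (2.30), Axin2 (1.61) and Sp5 (3.41) and 1KO+1CI had Wnt3 (2.98), Axin2 (1.83) and Sp5 (3.84). None was called lower, and of all genes 3.83%, 3.89% and 3.62% were higher and 4.29%, 3.64% and 3.1% lower in the 3 lines. Between these days Lef1 went in opposite directions, higher by 1.37 in WT, and at −0.70 in 1KO and −0.80 in 1KO+1CI.

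From day 0 to day 4, WT had 2 of the 9 genes called higher (Wnt3 at 1.04 and Lef1 at 1.59), 1KO had 4 (Wnt3 at 2.33, Tcf7, Axin2 at 1.87 and Sp5 at 2.04) and 1KO+1CI had 3 (Wnt3 at 3.21, Axin2 at 1.83 and Sp5 at 2.30). None was called lower. Of all genes 1.98% were higher and 4.33% lower in WT, 4.17% and 5.13% in 1KO, and 4.78% and 5.59% in 1KO+1CI. The median difference of the 9 genes over these 4 days was 0.20, 0.54 and 0.70 in WT, 1KO and 1KO+1CI, beside −0.01, 0.01 and 0.03 for all genes.

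The markers of the primitive streak, where Wnt3 acts in the embryo, moved with the day 4 result. All 6 streak markers with a row were past 2-fold in 1KO against WT at day 4, and their summed level was 20.3, 154 and 138 FPKM in WT, 1KO and 1KO+1CI, against 3.68 to 12.0 FPKM in the 6 libraries of days 0 and 2. The lowest streak marker at day 4 was Lhx1 in each line, at 0.252, 1.56 and 0.822 FPKM in WT, 1KO and 1KO+1CI. Between 1KO+1CI and 1KO at day 4 the streak sum was 0.899 of its level while Wnt3 was 1.74 times and Sp5 1.64 times theirs. The 7 primitive endoderm markers summed to 6.75, 13.6 and 20.9 FPKM in WT, 1KO and 1KO+1CI at day 4. Dab2 gave 3.73, 8.18 and 11.6 FPKM of these sums. In 1KO against WT at day 4, 6 of the 7 were higher, and Foxa2 was the 1 past 2-fold (1.19). Gata4 was lower (−0.39). In 1KO+1CI against 1KO at day 4, 7 of the 7 were higher and 0 past 2-fold. The order of the sums was the same at day 0 (6.48, 9.97 and 14.7 FPKM) and day 2 (2.87, 5.52 and 12.6 FPKM), when Wnt3 did not follow it. The 4 neural markers summed to 57.0, 19.8 and 26.6 FPKM in the same order of lines at day 4, with Tubb3 the 1 past 2-fold in 1KO against WT (−1.63). Of the 6 pluripotency markers, Nanog (1.58) and Esrrb (1.08) were past 2-fold higher and Zfp42 (−1.13) lower in 1KO against WT at day 4. The feeder fibroblast sum at day 4 was 56.5, 83.0 and 194 FPKM, of which Acta2 alone gave 147 FPKM in 1KO+1CI. What share any of these cells had in the Wnt gene levels was not tested.

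Across the 9 libraries, which share lines and days and are not independent, the levels of the members fell into patterns that are given as a description. On log2(FPKM + 1), Wnt3 and Axin2 had a Pearson r of 0.98, Sp5 and Dkk1 0.92, Wnt3 and Dkk1 0.89 and Axin2 and Sp5 0.82. Lef1 did not share this pattern, with r of 0.10 to Wnt3, 0.01 to Axin2 and 0.07 to Sp5. Among the 4952 genes that reached 1 FPKM somewhere and ranged over at least 1 log2 unit, the 3 genes most like Wnt3 were Cap2, Axin2 and Eomes, each with r of 0.98. Eomes encodes a T-box factor of the streak and ran from 1.06 FPKM in 1KO+1CI at day 0 to 38.5 in 1KO+1CI at day 4. Those most like Axin2 were Epha7, Wnt3 and Piezo2 (0.98 each). Those most like Lef1 were Dusp2 (0.98), a phosphatase of MAP kinases, Siah2 (0.97), a ubiquitin ligase, and Taf7l (0.96), a germline form of a TFIID subunit. Taf7l was at 0.477, 0.363 and 1.68 FPKM in WT, 2.98, 5.76 and 3.28 FPKM in the 1KO line and 3.30, 7.58 and 4.79 FPKM in 1KO+1CI at days 0, 2 and 4. Sp5 was most like Ism2, Ghr and Camk2d (0.98 each), Tcf7 most like Serinc5 (0.96), Irf1 (0.95) and Olfm1 (0.94), and Dkk1 most like Rbmx (0.97), Mid1 (0.96) and Efna5 (0.96). For Tcf7l1, which varied little, the best r were 0.88 (Ddah1), 0.84 (Arpin) and 0.84 (Vgll3).

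The rest of the pathway was followed through 8 lists of other Wnt genes, with 88 of 99 genes in the table. Of the 14 ligands with a row, 8 reached 1 FPKM in some library. Wnt8a, a ligand of the streak, gave 3.06, 0.894 and 3.67 FPKM in WT, 3.18, 5.21 and 25.5 FPKM in the 1KO line and 3.23, 6.34 and 22.2 FPKM in 1KO+1CI at days 0, 2 and 4. Among the ligands with a row it was the highest at day 4 in both Dnmt1-/- lines, above Wnt3, with a log2 difference of 2.51 between 1KO and WT. Wnt1, Wnt2, Wnt3a and Wnt8b had no row and could not be ranked. Wnt5b, at 1.34, 4.70 and 3.38 FPKM at day 4 in WT, 1KO and 1KO+1CI, was also called higher in 1KO. At day 4, Wnt6 (1.08, 2.24 and 7.57 FPKM in WT, 1KO and 1KO+1CI) and Wnt4 (1.58, 2.02 and 6.24 FPKM) were called higher in 1KO+1CI than in 1KO, by 1.40 and 1.26. Wnt7b was highest in 1KO at day 0, at 8.82 FPKM, against 3.31 in WT and 3.62 in 1KO+1CI. Wnt5a was highest in 1KO+1CI at day 0 (3.29 FPKM), Wnt9a in WT at day 0 (2.21 FPKM) and Wnt11 in 1KO at day 4 (1.29 FPKM).

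Over the 8 lists at day 4, 8 of 88 genes (9.09%) were called higher in 1KO than in WT and 0 lower, beside 1.67% and 0.59% of all genes, with a median difference of 0.09. The 8 are Wnt8a, Wnt5b, the receptors Fzd9, Fzd10 and Ror2, the co-repressor Tle3, and the targets Tnfrsf19 and T. T, a T-box factor that is both a Wnt target and a streak marker, gave 2.07, 29.2 and 27.2 FPKM in WT, 1KO and 1KO+1CI at day 4 and had the largest difference of them, 3.30. Ror2, a receptor for Wnt5a, gave 3.22, 8.83 and 9.15 FPKM and differed by 1.22. Tle3, a Groucho co-repressor that binds TCF/LEF factors, gave 10.6, 22.2 and 25.5 FPKM and differed by 1.01. None of the 16 genes of cytoplasmic transduction and the destruction complex was called, nor any of the 8 secreted antagonists or the 8 genes of the R-spondin and receptor turnover list. Between 1KO+1CI and 1KO at day 4, Wnt4 and Wnt6 were the 2 of the 88 genes (2.27%) called higher, beside 0.624% of all genes, and none was called lower.

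At day 0 the 88 genes had 4 called higher in 1KO than in WT (Wnt7b, Ccnd1, Myc and Ascl2) and 3 lower (Wnt4, Csnk1e and Tnks), or 4.55% and 3.41%, beside 2.24% and 1.55% of all genes. Ccnd1, Myc and Ascl2 are known targets, and of these Ccnd1 remained past 2-fold in 1KO+1CI against WT, with 33.1, 79.5 and 84.1 FPKM in WT, 1KO and 1KO+1CI. At day 2 those called were Wnt8a and Ascl2, higher, and Wls, which carries Wnt proteins to the cell surface, lower, at 5.82, 2.31 and 3.27 FPKM in WT, 1KO and 1KO+1CI. These are 2.27% of the 88 genes higher and 1.14% lower, near the 1.6% and 0.663% of all genes.

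In WT, 2 of the 88 genes (2.27%) were called higher from day 0 to day 4 and 5 (5.68%) lower, near the 1.98% and 4.33% of all genes. The receptor Ror1 went from 0.334 to 2.03 FPKM and the antagonist Sfrp4 from 1.46 to 6.37 FPKM. Porcn, the acyltransferase that Wnt proteins need for secretion, went from 10.9 to 1.53 FPKM, a difference of −2.23. The receptor Fzd5 went from 11.6 to 3.82 FPKM, and Wnt7b and the target Cdx1 were also lower. Notum, a feedback enzyme that inactivates Wnt proteins by removing their lipid, gave 8.03, 27.8 and 1.58 FPKM in WT, 14.9, 17.6 and 1.34 FPKM in the 1KO line and 17.1, 14.6 and 1.53 FPKM in 1KO+1CI at days 0, 2 and 4. In WT it was thus highest at day 2, the day at which Sp5 was lowest, and in each line it was lowest at day 4. From day 0 to day 2, 12.5%, 3.41% and 5.68% of the 88 genes were lower in WT, 1KO and 1KO+1CI, and 4.55%, 1.14% and 4.55% higher. Of all genes 3.87%, 3.32% and 3.32% were lower and 2.18%, 1.39% and 1.81% higher. From day 2 to day 4, 5.68%, 13.6% and 19.3% of the 88 were higher, and 5.68%, 4.55% and 3.41% lower. Of all genes 3.83%, 3.89% and 3.62% were higher and 4.29%, 3.64% and 3.1% lower.

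**Figure D4:**
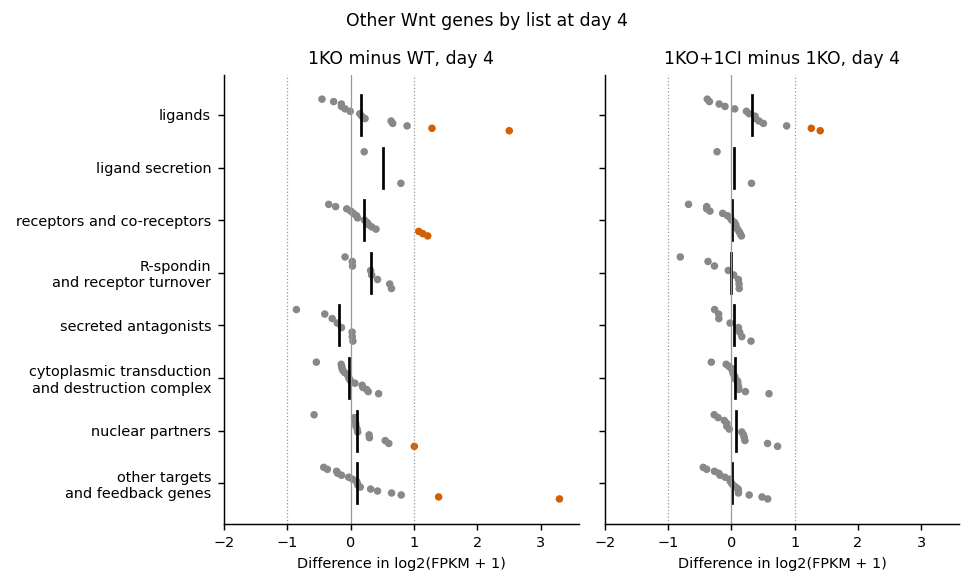
Differences in log2(FPKM + 1) at day 4 (x axes) of the other Wnt genes in 8 lists (rows), as 1KO minus WT (left) and 1KO+1CI minus 1KO (right). Each point is a gene, spread vertically by rank, orange points lie past the dotted lines at −1 and 1, black bars are list medians, and each value compares 1 library with 1 library. On the left 8 genes lie to the right of 1 and none to the left of −1.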

How the data were processed

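Poly(A) RNA of 9 samples, 1 for each line and day, was sequenced. Per the labels and methods, the authors used Trim Galore for trimming, HISAT2 with mm10 for mapping, SAMtools, and HOMER for the FPKM values per gene, which were taken as deposited. The sources used here do not state versions, annotation, strand setting or how reads with several alignments were treated. The deposited table of repeats was not used. Of 15095 entries, 21 whose symbol was 0 or had the form of a date (up to 0.117% of a library's summed FPKM) were left out, and 15074 genes were used. No value in the table was 0, and shares of all genes refer to these 15074 genes only. Genes without a row were not assessed. Samples were assigned by their titles. A number in the columns of 1KO+1CI was taken as that of a clone.

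Members and lists were chosen with earlier results of these data known. Depth was recovered by scanning for the library size at which FPKM times length falls on whole numbers in 1850 genes with 1 GENCODE M21 transcript. Between 55.9% and 62.2% of values then lay within 0.1 of a whole number, and the choice was least clear for 1KO+1CI at day 4. Of whole values from 2 to 9, 58.4% were even, so that mates of a pair were partly counted as separate reads, and intervals therefore use read pairs. Pairs per gene assume the longest coding transcript. Comparisons are differences in log2(FPKM + 1) with a pseudocount of 1, and the tests on simulated data concerned depth and 2-fold counts. The genes named are the 9 members, the largest rise and deepest fall past 2-fold in each list in 3 comparisons, ligands with at least 1 FPKM, and the 3 genes most like each member, while the genes counted at days 0 and 2 and the other genes called at day 4 were named after their values were seen. Gene positions are from GENCODE M21 (GRCm38) and promoters from RefSeq (GRCm38.p6), where 9 of 9 genes matched with 14 windows. The alternatives changed the pseudocount to 0.1 or 0.01, kept only genes with 1 FPKM in some library, scaled to a common sum (TPM) or by median ratios, or lowered the threshold to 1.5-fold. Computation used scipy 1.17.1, pandas 2.3.3, numpy 2.4.6 and matplotlib 3.10.9 in Python 3.11.15.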

Additional observations from a re-analysis of the deposited data

Results flagged for a closer look

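In 3 genes the same contrast went in opposite directions in different lines or days, with both sides at least 0.5 in size on log2(FPKM + 1). Each side compares single libraries and these differences were not tested. Axin2 was lower in 1KO than in WT at day 0 (−0.58) and higher at day 4 (0.89), a gap of −1.48. From day 2 to day 4, Lef1 was higher in WT (1.37) and lower in 1KO (−0.70) and in 1KO+1CI (−0.80), gaps of 2.07 and 2.17. From day 0 to day 4, Sp5 was lower in WT (−0.89) and higher in 1KO (2.04) and in 1KO+1CI (2.30), gaps of −2.93 and −3.19. The 2 gaps of Lef1 share the WT libraries, and so do those of Sp5.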

How the results depend on the processing

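No paired analysis was possible because each line and day has 1 library, so the groups share fewer than 2 replicate numbers and no result comes from a test. Setting lines against each other over the 3 days, with day as a term, could be fitted but was left out. Of the 18 counts of members past 2-fold, in each direction, for 1KO against WT, 1KO+1CI against 1KO and day 4 against day 0, all 18 stayed the same with median-ratio scaling. They also stayed the same with a minimum of 1 FPKM, which could not change them. Each member reached 1 FPKM in some library, so the minimum removed none. With a pseudocount of 0.1, day 4 against day 0 had 1 gene lower in WT (Sp5) and 5 higher in 1KO+1CI, with Nkd1 and Dkk1 added, and 5 in place of 4 in 1KO, with Nkd1 added. With 0.01 these 3 counts were again 1, 5 and 5, 1KO against WT had 1 lower at day 0 (Nkd1), 2 higher at day 2 (Dkk1 added) and 3 in place of 2 higher at day 4 (Axin2 added, at 1.00), and 1KO+1CI against 1KO had 1 higher at day 2 (Dkk1). With a common sum of FPKM, Sp5 was the 1 gene lower from day 0 to day 4 in WT, Dkk1 made 4 higher in 1KO+1CI, and Axin2 (1.01) made 3 higher in 1KO against WT at day 4. With a threshold of 1.5-fold, 1KO against WT had 1 lower at day 0 (Tcf7) and 3 higher at day 4 (Axin2 added), 1KO+1CI against 1KO had 2 higher at day 4 (Wnt3 and Sp5), and day 4 against day 0 had 1 lower in WT (Sp5) and 5 higher in 1KO+1CI. Of the 81 single differences no called one changed sign. A change of pseudocount or the minimum cannot change a sign. The scaling factors ran from 2.29 to 2.56 for the common sum and from 0.982 to 1.02 for median ratios. These spans are too small to reverse a called difference. Of the 81, 11, 16, 0, 6 and 0 left their counting interval with pseudocounts of 0.1 and 0.01, the minimum, the common sum and median ratios. The minimum leaves each value as it is. A smaller pseudocount enlarges differences of low genes by its construction. Intervals cover counting error only, and depth limits Dkk1, Nkd1 and the day 2 values of Sp5.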
